A study of Mus musculus with 8 samples.

Results

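Cytochrome P450 (Cyp) and UDP-glucuronosyltransferase (Ugt) genes were examined in ERRα ChIP-seq peak lists from mouse liver and skeletal muscle. Every peak whose annotated gene name was Cyp or Ugt followed by a digit was taken, which gave 107 gene names among the 19188 gene names of the 4 lists. A gene was counted as bound in a list when that list held a peak annotated to it at most 20 kb from its transcription start site (TSS), and 93 of the 107 were bound in at least 1 list, by 318 peaks in all. The other 14 names had peaks only farther away. RefSeq holds 156 genes of such names on the same assembly, of which 121 are protein coding and 34 are pseudogenes, and all 107 names matched one of them.

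The study immunoprecipitated ERRα, an orphan nuclear receptor that binds the ERR response element (ERRE), from tissues of male mice of strain C57BL/6N aged between 2 and 3 months and collected at zeitgeber time 9. WT mice were compared with ERRα 3SA mice, age-matched littermates that carry a phospho-deficient ERRα with mutated serines. Chromatin came from the pooled livers of 2 mice or the pooled gastrocnemius and soleus of 5 mice per genotype. The labels state that 3 immunoprecipitations were combined into each library. With 1 library for each genotype and tissue, nothing checks a difference against replicates. No test is given, and differences between lists compare those libraries. Whole tissue was used, so a site bound in a few cells and a site weakly bound in all cells cannot be told apart.

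P450s are heme enzymes that insert oxygen into fatty acids, sterols, steroid hormones, vitamins and foreign compounds, and they receive electrons from P450 oxidoreductase, cytochrome b5 or, in mitochondria, ferredoxin. UGTs attach glucuronic acid from UDP-glucuronic acid to bilirubin, hormones and drugs, so that these can be excreted. Many of the genes lie in tandem clusters and are known for high expression in hepatocytes, where nuclear receptors such as PXR, CAR, FXR and PPARα control them.

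The lists held 21813 peaks in WT liver, 29040 in ERRα 3SA liver, 25427 in WT muscle and 50647 in ERRα 3SA muscle. Peaks were ranked by the authors' score, each list on its own, and equal scores took the same, smallest rank. Top 5% then means that the rank, divided by the number of peaks in the list, was 0.05 or less, and other percentages are read likewise. At the lowest score of 30, 8534 WT and 17824 ERRα 3SA muscle peaks shared the ranks 16894 and 32824, whereas 15 WT and 134 ERRα 3SA liver peaks had that score. Of 10 muscle marker genes, 8 were bound in WT and 9 in ERRα 3SA muscle, and 7 and 6 of them had a peak in the top 10% of the list, against 6 bound in either liver list with 1 and 0 in the top 10%. Liver markers separated the tissues less, with 4 of 10 bound in WT liver, 5 in ERRα 3SA liver and 3 in each muscle list, and Alb, Fgb, Tf and Cps1 were bound in no list.

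The P450 and UGT genes were bound about as often as other genes in liver and less often in WT muscle. In WT liver 49 of the 107 genes were bound, which is 45.8% (95% Wilson interval 36.7 to 55.2%), beside 39.2% of all gene names. In ERRα 3SA liver 55 were bound, or 51.4% (42.0 to 60.7%), beside 49.2% of all. WT muscle had 27 bound genes, or 25.2% (17.96 to 34.2%), beside 45.1% of all, and ERRα 3SA muscle had 65, or 60.7% (51.3 to 69.5%), beside 63.5% of all. The intervals cover counting error only, and neighbouring genes of a cluster are not independent. The 107 names, like those of all genes, come from the lists themselves, so each list set in part which genes were counted.

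The muscle values changed when fewer peaks were kept. When each list was cut to the 21813 best-scored peaks, the bound genes numbered 47 in ERRα 3SA liver (43.9%, beside 40.9% of all genes), 21 in WT muscle (19.6%, beside 40.3%) and 32 in ERRα 3SA muscle (29.9%, beside 37.9%), while WT liver, the shortest list, kept 49 (45.8%, beside 39.2%). In every list but WT liver the cut fell among peaks of equal score. Their order in the deposited list decided which were kept, so these counts are in part arbitrary. In the whole ERRα 3SA muscle list 23 of the 65 bound genes, or 35.4%, had only peaks at the lowest score, compared with 21.6% of all genes bound there. Peaks in the top 10% of a list were found at 13 genes in WT liver (12.1%, beside 6.61% of all genes), 11 in ERRα 3SA liver (10.3%, beside 8.73%), 5 in WT muscle (4.67%, beside 7.51%) and 6 in ERRα 3SA muscle (5.61%, beside 12.7%). Wilson intervals of these 4 shares were 7.24 to 19.7%, 5.84 to 17.5%, 2.01 to 10.5% and 2.60 to 11.7%.

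**Figure D1:**
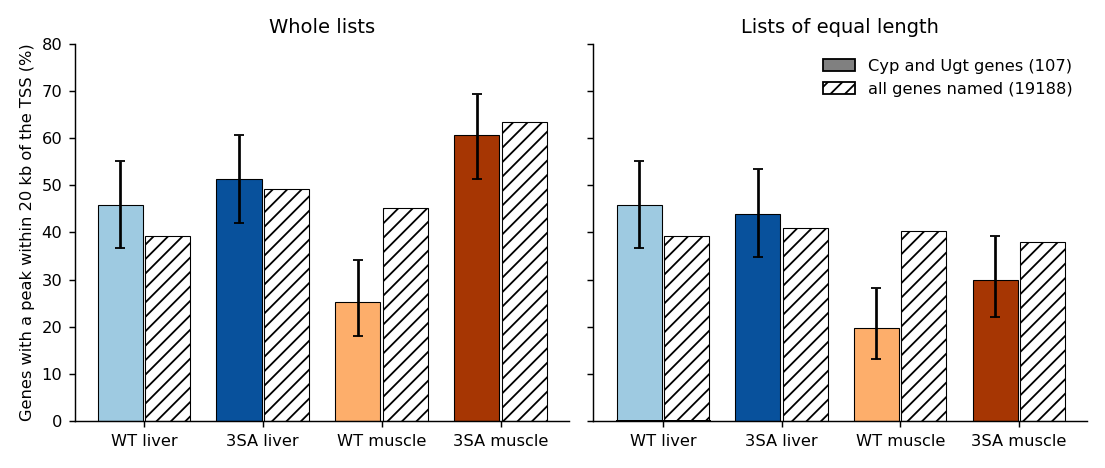
Share of the 107 Cyp and Ugt genes (coloured bars, error bars are 95% Wilson intervals) and of all 19188 gene names (hatched bars) that had a peak at most 20 kb from the TSS, in percent, for whole lists and for lists cut to 21813 peaks. The 2 WT muscle bars of Cyp and Ugt genes, at 25.2% and 19.6%, stand below the hatched bars at 45.1% and 40.3%. Peaks of equal score at the cut were kept by their order in the deposited list.

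In liver 36 of the 107 genes (33.6%, beside 29.3% of all gene names) were bound in both genotypes, 19 (17.8%, beside 19.9%) in ERRα 3SA alone and 13 (12.1%, beside 9.84%) in WT alone. In muscle 17 genes (15.9%, beside 33.3%) were bound in both, 48 (44.9%, beside 30.2%) in ERRα 3SA alone and 10 (9.35%, beside 11.8%) in WT alone. Thus most bound genes of ERRα 3SA muscle had no peak within 20 kb in WT muscle. Some of them, such as Cyp11a1, Cyp1a2 and Cyp2r1, had none in either liver list. The ERRα 3SA muscle list was the longest of the 4, and the part of its length in this was not tested. Of the 107 genes, 21 were bound in that list alone. Because genes were counted when any list named them, that list also set in part which genes were counted. The shares of all genes rest on names taken in the same way. Only 9 genes (8.41%, beside 16% of all) were bound in all 4 lists, namely Cyp21a1, Cyp2c29, Cyp2f2, Cyp2u1, Cyp46a1, Cyp4f37, Cyp8b1, Ugt1a1 and Ugt3a1.

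Peaks themselves were then matched between genotypes by centres within 300 bp. In liver 40 of 74 WT peaks (54.1%, interval 42.8 to 64.9%, beside 49.1% of all peaks within 20 kb) had an ERRα 3SA partner, and 40 of 101 ERRα 3SA peaks (39.6%, 30.6 to 49.35%, beside 34.2%) had a WT partner. In muscle 9 of 36 WT peaks (25%, 13.8 to 41.1%, beside 23.4%) and 9 of 107 ERRα 3SA peaks (8.41%, 4.49 to 15.2%, beside 12.9%) had one. The shares of the P450 and UGT peaks were near those of all peaks in each list.

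Between the tissues of 1 genotype, 9 of the 74 WT liver peaks (12.2%, beside 17.3% of all) and 17 of the 101 ERRα 3SA liver peaks (16.8%, beside 22.5%) had a partner in muscle. From the muscle side these were 9 of 36 WT peaks (25%, beside 14.9%) and 17 of 107 ERRα 3SA peaks (15.9%, beside 15.4%).

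Merging peaks by their centres gave 242 sites, of which 188 were in 1 list and 16 in at least 3, and 22 of the 188 overlapped another site whose centre lay farther off. The 6 sites of all 4 lists lay in the first exon of Cyp2u1, upstream of and within Cyp46a1, 19.8 kb upstream of Cyp2c29 and, as a pair, at Ugt1a1. In liver 29 genes had a peak shared by the genotypes, and in muscle the 7 were Cyp1b1, Cyp26c1, Cyp2c29, Cyp2u1, Cyp3a41b, Cyp46a1 and Ugt1a1. Of the 40 liver sites found in both genotypes, 26 (65%) stood at a smaller top percentage in the ERRα 3SA list, beside 64.5% of the 5512 shared liver peaks of all genes. Their medians were 25.3% in WT and 16.7% in ERRα 3SA, beside 24.9% and 17.99% for all genes. Of the 9 muscle sites 6 stood at a smaller top percentage in ERRα 3SA, beside 71.4% of 3046 for all genes. The medians over the 9 were 7.08% in WT and 10.97% in ERRα 3SA, beside 15.96% and 8.67% for all genes. In liver the P450 and UGT sites thus stood near the values of all shared peaks. In muscle the medians of the 9 sites changed in the other direction from those of all shared peaks, and this was not tested.

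**Figure D2:**
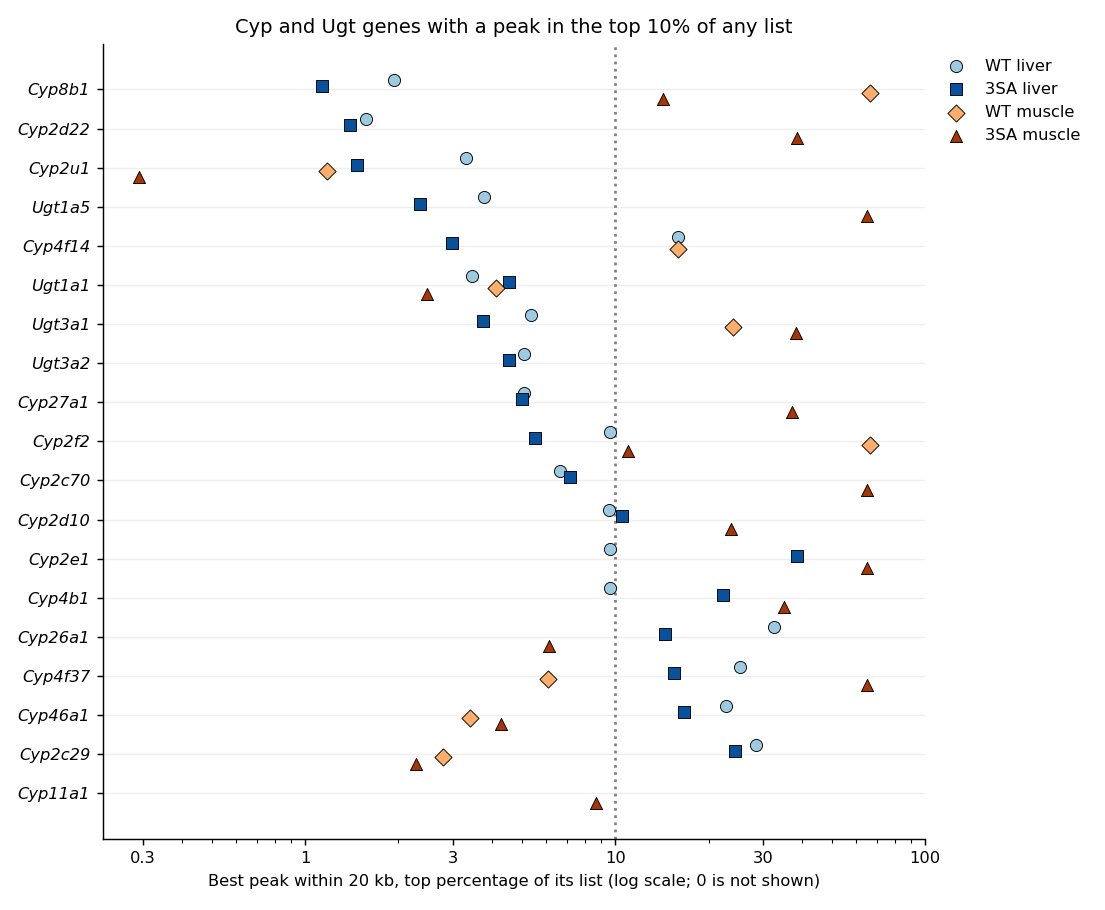
Best-ranked peak within 20 kb of the TSS, as the top percentage of its list on a log axis, for the 19 Cyp and Ugt genes with a peak in the top 10% (dotted line) of any list; a missing symbol means no peak within 20 kb. Cyp8b1 and Cyp2d22 stand furthest left in both liver lists and Cyp2u1 in both muscle lists, where Cyp2c29, Cyp46a1 and Ugt1a1 also lie left of 5%.

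The consensus ERRE, TCAAGGTCA on either strand, was searched in the central 300 bp of each peak. It was present in 5 of 74 P450 and UGT peaks of WT liver (6.76%, interval 2.92 to 14.9%, beside 15.2% of all peaks within 20 kb) and in 10 of 101 of ERRα 3SA liver (9.90%, 5.47 to 17.3%, beside 14.9%). In muscle it was in 1 of 36 WT peaks (2.78%, 0.492 to 14.2%, beside 4.45%) and 2 of 107 ERRα 3SA peaks (1.87%, 0.514 to 6.56%, beside 4.86%). With 1 mismatch allowed, a setting chosen after the first values were seen, the shares were 37.8%, 39.6%, 11.1% and 13.1% in the same order, beside 38.8%, 39.1%, 18.04% and 19.4% of all peaks.

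The 13 sites with the exact ERRE included 6 found in both genotypes of a tissue, at Cyp2u1, Cyp2f2, Cyp4f37, Ugt1a6b, Cyp2a5 and Cyp1a1, and only the Cyp2j12 site had no liver peak. These windows of mm10 show the exact ERRE in capitals for the sites in at least 2 lists, with the Cyp27a1 upstream site, whose ERRE lay outside the central 300 bp, and the distal Cyp26a1 peak. Each is written along the strand on which the ERRE reads TCAAGGTCA, and the Cyp2u1 and Cyp27a1 windows are short because they touch UTRs.
Cyp2u1, chr3:131303189-131303217, plus strand: gctacatgacTCAAGGTCAaccgcgaggc
Ugt1a6b, chr1:88105893-88105961, minus strand: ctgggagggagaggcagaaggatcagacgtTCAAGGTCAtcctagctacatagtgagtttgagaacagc
Cyp4f37, chr17:32635132-32635200, minus strand: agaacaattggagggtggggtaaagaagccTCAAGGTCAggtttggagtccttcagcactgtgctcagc
Cyp2f2, chr7:27118872-27118940, plus strand: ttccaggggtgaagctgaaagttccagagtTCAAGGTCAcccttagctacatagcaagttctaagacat
Cyp2a5, chr7:26848487-26848555, plus strand: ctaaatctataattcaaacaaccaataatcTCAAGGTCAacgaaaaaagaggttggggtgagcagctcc
Cyp19a1, chr9:54212235-54212303, minus strand: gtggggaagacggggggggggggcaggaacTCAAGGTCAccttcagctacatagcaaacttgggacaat
Cyp1a1, chr9:57692714-57692782, plus strand: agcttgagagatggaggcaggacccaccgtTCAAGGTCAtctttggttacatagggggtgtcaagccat
Cyp27a1 upstream, chr1:74698897-74698925, plus strand: ctaactgggtTCAAGGTCAcagaatgggt
Cyp26a1 distal, chr19:37837661-37837729, minus strand: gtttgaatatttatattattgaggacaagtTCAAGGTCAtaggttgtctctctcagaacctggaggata

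The ERRE at Cyp2u1 lay inside the called interval of all 4 lists, though within the central 300 bp only in WT liver and ERRα 3SA muscle. The octamer CTACATAG, picked out after these windows were seen, followed the ERRE in 3 of the 14 windows shown here and below, at Ugt1a6b, Cyp2f2 and Cyp19a1. Of the 18 P450 and UGT peaks with the ERRE, 5 (27.8%) were centred in a SINE, beside 33.2% of all 5818 peaks with the ERRE, and of the 300 without it 6 (2%) were, beside 6.86% of all.

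Of the 10 sites in the top 10% of both liver lists, 1 held TCAAGGTCA in the central 300 bp, at Cyp2u1, beside 30.7% of the 1028 such shared peaks of all genes, and 1 elsewhere in the interval, upstream of Cyp27a1. A further 5 held it with 1 mismatch, and 3, at Ugt3a1, Ugt3a2 and Cyp2c70, held neither. These last counts were not computed for the shared peaks of all genes. The closest nonamers of the 5 sites are in capitals below, with the difference from TCAAGGTCA counted from its 5′ base. In 4 of the 5 it lies at the first base, a trait picked out in these windows. How often it lies there in all peaks was not computed, and nothing is concluded from it.
Cyp8b1 (T1A), chr9:121919402-121919470, plus strand: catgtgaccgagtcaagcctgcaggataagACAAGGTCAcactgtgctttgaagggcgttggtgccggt
Cyp2d22 (T1C), chr15:82380553-82380621, plus strand: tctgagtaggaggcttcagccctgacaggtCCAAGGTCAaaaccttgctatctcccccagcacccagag
Ugt1a5 (T1C), chr1:88166168-88166236, plus strand: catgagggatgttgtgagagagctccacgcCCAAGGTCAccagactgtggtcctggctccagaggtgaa
Cyp2f2 intron (T1C), chr7:27128651-27128719, plus strand: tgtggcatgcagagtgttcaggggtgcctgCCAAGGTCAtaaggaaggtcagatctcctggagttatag
Cyp27a1 intron (A9T), chr1:74721438-74721506, plus strand: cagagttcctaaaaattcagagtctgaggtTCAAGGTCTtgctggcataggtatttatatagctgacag

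Among the sterol and bile acid P450s, 5 of 7 were bound in WT liver, 5 in ERRα 3SA liver, 2 in WT muscle and 4 in ERRα 3SA muscle. The shares of all genes to set beside this and the following family counts are 39.2%, 49.2%, 45.1% and 63.5% in the same order. Cyp8b1, the sterol 12α-hydroxylase that sets the share of cholic acid, had a site centred 3.07 to 3.12 kb upstream of its TSS that ranked 423 in WT liver (top 1.94%), 327 in ERRα 3SA liver (top 1.13%) and 7241 in ERRα 3SA muscle (top 14.3%). It was among the 2 highest-ranked P450 sites of both liver lists and was not called in WT muscle, where the only Cyp8b1 peak, in its exon, had the lowest score. The ERRα 3SA liver list held 5 Cyp8b1 peaks within 20 kb and the WT liver list 2, and the 3 without a WT partner lay 3.02 to 6.67 kb downstream, 2 of them at Ackr2.

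Cyp27a1, the mitochondrial sterol 27-hydroxylase of the acidic bile acid pathway, had a pair of sites in both liver lists. A site 14.80 kb (WT) or 14.97 kb (ERRα 3SA) upstream, at the 3′ end of Ttll4, ranked 1107 in WT (top 5.07%) and 1448 in ERRα 3SA liver (top 4.99%). A site in an intron, 7.85 or 7.95 kb into the gene, ranked 1746 (top 8.0%) and 2730 (top 9.40%). Neither had a muscle peak with its centre within 300 bp. The ERRα 3SA muscle list had a peak 14.47 kb upstream, at the top 37.2%, that overlapped the upstream liver site and held the same ERRE, and another 16.02 kb upstream at the top 38.7%.

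The remaining members of this group stood lower or were not bound. Cyp7a1, the rate-limiting cholesterol 7α-hydroxylase, had peaks within 20 kb in ERRα 3SA liver alone. These 2 lay in its 3′ UTR and 14.9 kb upstream, at ranks 13000 (top 44.8%) and 23394 (top 80.6%). Beyond 20 kb it had 3 peaks in ERRα 3SA muscle, the best 39.12 kb downstream at the top 23.7%. Cyp7b1, the oxysterol 7α-hydroxylase, had 1 peak within 20 kb, in WT liver alone, 11.6 kb upstream, at rank 7108 (top 32.6%). Farther off it had 1 WT liver peak with the ERRE, 78.11 kb downstream (top 45.2%). ERRα 3SA muscle had 1 lowest-score peak 60.17 kb upstream of it. Cyp39a1, another oxysterol 7α-hydroxylase, had none within 20 kb and 3 intronic peaks beyond it in ERRα 3SA muscle, the best at the top 8.67%.

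Cyp51, which demethylates lanosterol in cholesterol synthesis, had an intronic site in both liver lists at ranks 4103 (top 18.8%) and 6515 (top 22.4%), and 2 lowest-score peaks in ERRα 3SA muscle. Cyp46a1, the cholesterol 24-hydroxylase best known from neurons, was the exception to the liver pattern. Its site 1.09 to 1.43 kb upstream was in all 4 lists, at rank 5512 in WT liver (top 25.3%), 4837 in ERRα 3SA liver (top 16.7%), 862 in WT muscle (top 3.39%) and 2166 in ERRα 3SA muscle (top 4.28%), so both muscle lists placed it higher than both liver lists.

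**Figure D3:**
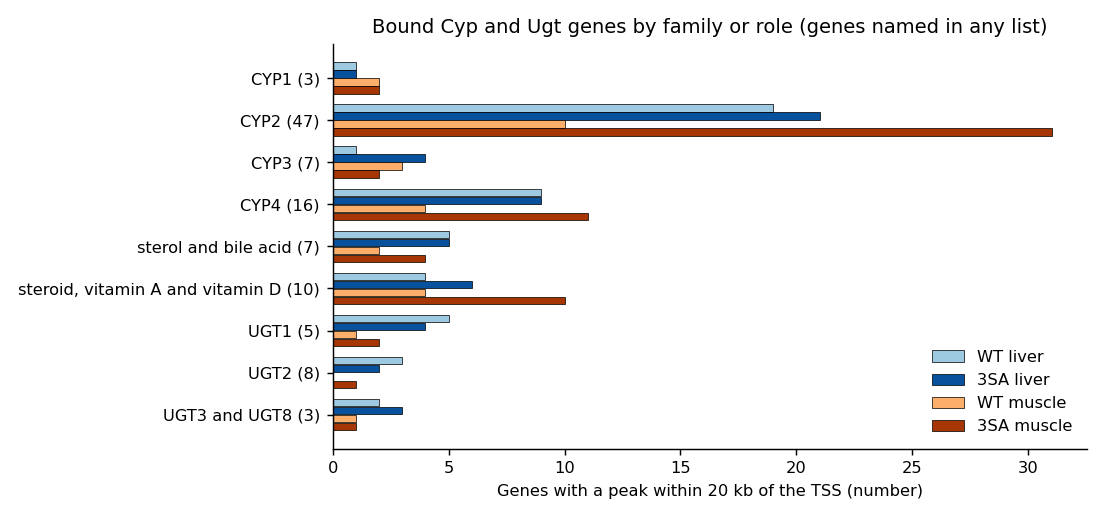
Number of Cyp and Ugt genes bound in each list, by family or role, with the number of genes named in any list in parentheses; Cyp20a1 is left out. Cyp2r1 is counted in the steroid and vitamin group and not in CYP2. ERRα 3SA muscle has the longest bar for CYP2 (31 of 47 genes) and for the steroid and vitamin group (10 of 10), and WT muscle has no bar for UGT2. Each list set in part which genes were named.

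The CYP2 family, whose members oxidise drugs, toxicants and fatty acids, had 47 named genes, of which 19 were bound in WT liver, 21 in ERRα 3SA liver, 10 in WT muscle and 31 in ERRα 3SA muscle. These counts leave out Cyp2r1, which is counted below with the genes of steroid hormones and vitamins. The site at the first exon of Cyp2u1, a fatty acid hydroxylase, was the best-ranked P450 site of both muscle lists. It ranked 718 in WT liver (top 3.29%), 428 in ERRα 3SA liver (top 1.47%), 301 in WT muscle (top 1.18%) and 148 in ERRα 3SA muscle (top 0.292%). Its position was higher in ERRα 3SA than in WT in both tissues and higher in muscle than in liver in both genotypes.

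At the promoter of Cyp2d22, often taken as the mouse counterpart of human CYP2D6, a site centred 0.26 to 0.55 kb upstream ranked 342 in WT liver (top 1.57%) and 407 in ERRα 3SA liver (top 1.40%), and it stood at the top 38.7% in ERRα 3SA muscle. Cyp2f2, which bioactivates naphthalene in lung club cells and is also expressed in liver, had 4 peaks in WT liver, 5 in ERRα 3SA liver, 1 in WT muscle and 3 in ERRα 3SA muscle. Its intronic site 8.74 or 8.75 kb into the gene ranked 2091 (top 9.59%) in WT and 1597 (top 5.50%) in ERRα 3SA liver.

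Cyp2e1, the ethanol-inducible P450, had an intronic site at rank 2091 in WT liver (top 9.59%) that stood at rank 12919 in ERRα 3SA liver (top 44.5%), where 2 further peaks upstream were called, the better one at rank 11212 (top 38.6%). Cyp2d10 had a site 16.3 kb upstream at the top 9.55% of the WT and the top 10.5% of the ERRα 3SA liver list. Cyp2c70, which makes muricholic acids in mice, had a site 18.1 or 18.2 kb upstream, centred in a LINE, at the top 6.65% and the top 7.13%. Cyp2b10, the classical target of CAR, had 1 peak in WT liver (top 37.6%), 2 in ERRα 3SA liver (top 53.4% at best) and 1 in WT muscle (top 24.6%), none of them shared between genotypes.

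Cyp2c29 stood the other way round. A site 19.8 kb upstream of its TSS, in an intron of the pseudogene Cyp2c53-ps and centred in an LTR, ranked 706 in WT muscle (top 2.78%) and 1148 in ERRα 3SA muscle (top 2.27%), but 6227 in WT liver (top 28.5%) and 7068 in ERRα 3SA liver (top 24.3%). Cyp2c55 had a single peak, in ERRα 3SA muscle, at rank 5574 (top 11.01%), centred in a simple repeat. For Cyp2d9 the only WT muscle peak ranked 2872 (top 11.3%), and it had 4 peaks in ERRα 3SA liver but none in WT liver.

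CYP1, CYP3 and CYP4 genes, which handle aromatic compounds, a wide range of drugs, and long-chain fatty acids, were bound to different extents. Cyp1a2 had 1 peak in ERRα 3SA muscle alone (top 23.7%), and Cyp1b1 had a site shared by the muscle lists at rank 16894 in WT, its lowest score, and 19604 in ERRα 3SA (top 38.7%). Of the 7 CYP3 genes, 1 was bound in WT liver, 4 in ERRα 3SA liver, 3 in WT muscle and 2 in ERRα 3SA muscle. None of their peaks within 20 kb was in the top 10% of a list. Cyp3a11, a main drug-metabolising P450 of mouse liver, had no peak within 20 kb in any list. One LTR site was annotated to Cyp3a41a in some lists and to Cyp3a41b in others, a pair of near-identical genes, and was called in ERRα 3SA liver and both muscle lists. The best peak assigned to Cyp3a41b was another one, at rank 3863 in WT muscle (top 15.2%).

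The 16 CYP4 genes included 9 bound in each liver list, 4 in WT muscle and 11 in ERRα 3SA muscle. Cyp4f14, a leukotriene and fatty acid hydroxylase, had a site 7.77 to 7.95 kb upstream, in an intron of Cyp4f13, that ranked 3500 in WT liver (top 16.05%), 863 in ERRα 3SA liver (top 2.97%) and 4057 in WT muscle (top 15.96%). A site in an exon of Cyp4f37 ranked 5512 in WT liver (top 25.3%), 4514 in ERRα 3SA liver (top 15.5%) and 1543 in WT muscle (top 6.07%) and was not called in ERRα 3SA muscle. Cyp4a10 and Cyp4a14, the fatty acid ω-hydroxylases known as PPARα targets, were named at no peak of any list.

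Of the P450s of steroid hormones, vitamin A and vitamin D, 10 were named in the lists, while RefSeq holds 12. Of the 10, 4 were bound in WT liver, 6 in ERRα 3SA liver, 4 in WT muscle and 10 in ERRα 3SA muscle. The shares of all genes were 39.2%, 49.2%, 45.1% and 63.5%, and the first 3 counts were near them. Cyp11a1 and Cyp11b1 were named in the ERRα 3SA muscle list alone. That list thus set in part which genes were counted, and nothing is concluded from its count. The adrenal and gonadal enzymes are not known for expression in muscle. Cyp11a1, which cleaves the side chain of cholesterol, had 4 upstream peaks in ERRα 3SA muscle and none in the other lists, the best at rank 4392 (top 8.67%) in an LTR. Cyp17a1, the steroid 17α-hydroxylase, had 1 downstream peak each in WT liver (top 22.8%), ERRα 3SA liver (top 29.5%) and ERRα 3SA muscle (top 38.7%), at 3 separate places. Cyp2r1, a vitamin D 25-hydroxylase, had peaks within 20 kb in ERRα 3SA muscle alone, 2 in number, at the top 38.4% and at the lowest score.

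Cyp26a1 and Cyp26c1 degrade retinoic acid and lie next to each other on chromosome 19. Cyp26a1 had a site 2.53 or 2.63 kb upstream at the top 32.6% of the WT and the top 14.5% of the ERRα 3SA liver list, and ERRα 3SA muscle had a peak 3.43 kb upstream at rank 3101 (top 6.12%), which overlapped the ERRα 3SA liver peak with its centre more than 300 bp away. The Cyp26c1 site in an intron of Exoc6 was shared by the muscle lists, at rank 2872 in WT (top 11.3%) and at the lowest score in ERRα 3SA. The highest-ranked peaks annotated to Cyp26a1 lay outside the 20 kb limit, 139.85 kb (WT) and 139.84 kb (ERRα 3SA) downstream of its TSS, at rank 212 in WT liver (top 0.972%) and 184 in ERRα 3SA liver (top 0.634%), with a peak at 139.60 kb at rank 1722 in ERRα 3SA muscle (top 3.40%) and one at 139.41 kb at rank 10219 in WT muscle (top 40.2%).

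UGT1 genes share their last exons and differ by the exon from which each is transcribed. All 5 named UGT1 genes were bound in WT liver, 4 in ERRα 3SA liver, 1 in WT muscle and 2 in ERRα 3SA muscle. Ugt1a1, which conjugates bilirubin, had peaks in all lists. The site at its TSS ranked 6186 in WT liver (top 28.4%), 1050 in WT muscle (top 4.13%) and 5556 in ERRα 3SA muscle (top 10.97%) and stood at the top 64.3% in ERRα 3SA liver. Its intronic site 2.28 to 2.55 kb downstream stood at the top 28.5%, 26.7%, 7.08% and 2.47% in WT liver, ERRα 3SA liver, WT muscle and ERRα 3SA muscle, so it too was placed higher in muscle.

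The liver lists had their best Ugt1a1 peaks further into the intron, at rank 754 in WT (top 3.46%, 4.52 kb downstream) and 1320 in ERRα 3SA (top 4.55%, 4.01 kb downstream), and these overlapped with centres more than 300 bp apart. WT muscle had a further peak 4.91 kb downstream at rank 1781, and ERRα 3SA muscle had one 6.26 kb downstream, annotated to an exon of Ugt1a5, at rank 2085. The site at the exon of Ugt1a5 ranked 823 in WT liver (top 3.77%) and 679 in ERRα 3SA liver (top 2.34%) and was called in neither muscle list. Ugt1a6b had an intronic site at ranks 4103 (top 18.8%) and 3042 (top 10.5%) of the liver lists.

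**Figure D4:**
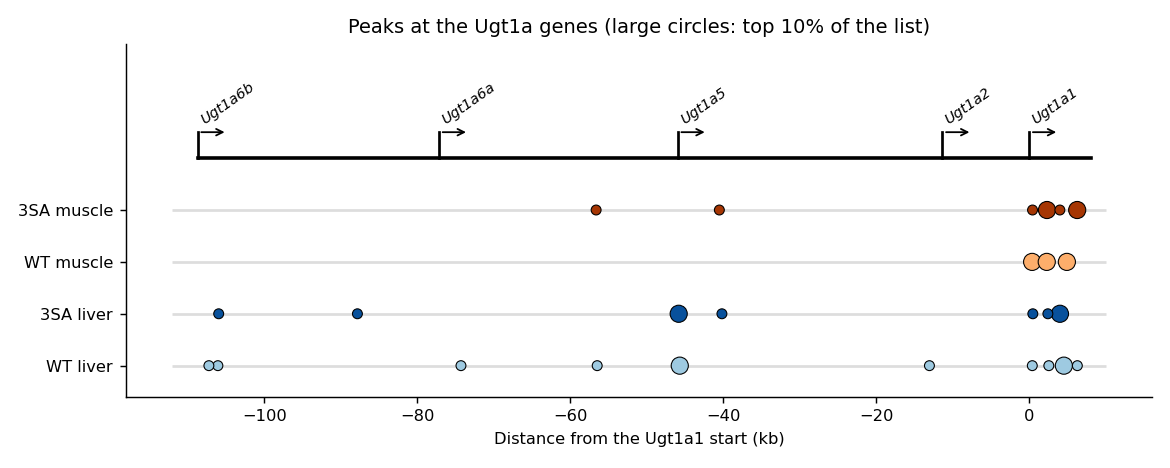
Peaks within 20 kb of a Ugt1a TSS in each list, by distance of the peak centre from the start of Ugt1a1 in kb; arrows mark the starts of the named Ugt1a genes and large circles are peaks in the top 10% of their list. Muscle peaks in the top 10% lie at the Ugt1a1 end of the locus, whereas the liver lists also have one each at Ugt1a5.

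The other UGTs were bound mainly in liver. Ugt3a1 and Ugt3a2, which use sugars other than glucuronic acid, each had a site at the TSS in both liver lists, at ranks 1164 (top 5.34%) and 1093 (top 3.76%) for Ugt3a1 and 1107 (top 5.07%) and 1320 (top 4.55%) for Ugt3a2. Of the 8 UGT2 genes, which conjugate steroids and bile acids, 3 were bound in WT liver, 2 in ERRα 3SA liver, 0 in WT muscle and 1 in ERRα 3SA muscle. The best peak was that of Ugt2b5 in ERRα 3SA muscle (top 23.7%), and the best in liver that of Ugt2a3 in ERRα 3SA liver (top 30.1%). Ugt2b1 had no peak within 20 kb. Ugt8a, the ceramide galactosyltransferase of myelin, had 1 peak within 20 kb, in ERRα 3SA liver, at the top 80.6%.

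By promoter-TSS annotation the P450 and UGT peaks of WT muscle stood below all peaks of that list, while in the other lists the share of all peaks lay within the counting interval. Distance to the TSS gave another picture. Promoter-TSS annotations were held by 9 of 74 WT liver peaks (12.2%, interval 6.53 to 21.5%, beside 10.98% of all) and 8 of 101 ERRα 3SA liver peaks (7.92%, interval 4.07 to 14.9%, beside 11.95%), but by 0 of 36 WT muscle peaks (interval up to 9.64%, beside 11.9%) and 4 of 107 ERRα 3SA muscle peaks (3.74%, interval 1.46 to 9.22%, beside 8.18%). Within 1 kb of the TSS lay 5 of 36 WT muscle peaks (13.9%, interval 6.08 to 28.7%, beside 26.2% of all). In ERRα 3SA muscle 10 of 107 did (9.35%, 5.16 to 16.4%, beside 17.4%). By this measure the share of all peaks lay outside the interval in ERRα 3SA muscle alone. The median distance to the TSS was 6.05 kb in WT liver, 4.84 kb in ERRα 3SA liver, 5.77 kb in WT muscle and 7.48 kb in ERRα 3SA muscle. For all peaks within 20 kb it was 5.39, 5.10, 4.9 and 6.32 kb in the same order. In all, 45 of the 318 peaks lay in an annotated transcript of another gene.

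Peaks centred in LINE or LTR repeats, which derive from retrotransposons, made up 21.6% of the WT liver peaks (interval 13.8 to 32.3%, beside 10.05% of all), 25.7% of ERRα 3SA liver (18.2 to 35.05%, beside 8.17%), 25% of WT muscle (13.8 to 41.1%, beside 8.66%) and 29.9% of ERRα 3SA muscle (22.1 to 39.2%, beside 9.78%). The peaks were then divided by whether their gene lies in one of 10 clusters of neighbouring family members. Within the clusters 68 of 198 peaks (34.3%, 28.1 to 41.2%) were in LINE or LTR repeats, and outside them 15 of 120 (12.5%, 7.72 to 19.6%). These cluster counts sum the 4 lists, so a site called in several lists counts more than once and the intervals are too narrow. The Cyp2c cluster on chromosome 19 had the most, with 19 of 23 peaks, and the Cyp2d cluster on chromosome 15 had 5 of 41. Without the LINE and LTR peaks the bound genes numbered 40 in WT liver, 45 in ERRα 3SA liver, 21 in WT muscle and 44 in ERRα 3SA muscle, a loss of 18.4%, 18.2%, 22.2% and 32.3% of the bound genes. Among all bound genes the loss was 8.61%, 6.16%, 7.70% and 8.78%. The part of repeats in the muscle calls was not tested.

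**Figure D5:**
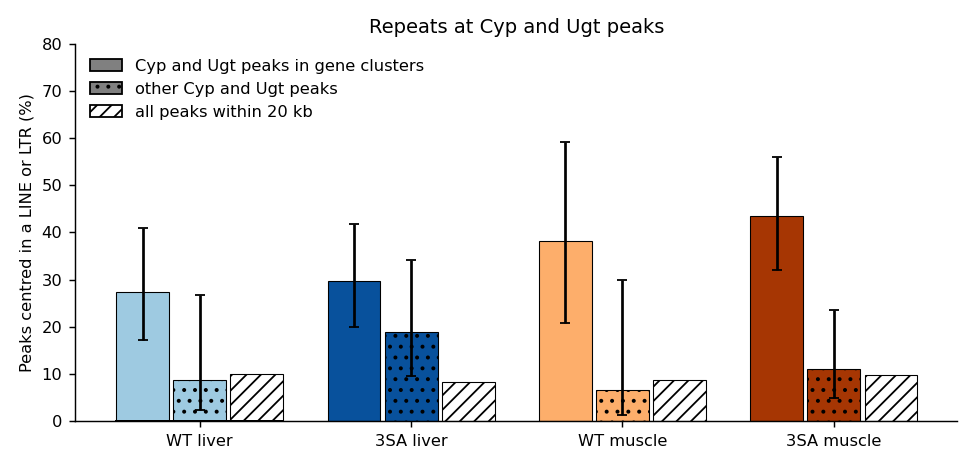
Percentage of the peaks at most 20 kb from a TSS that are centred in a LINE or LTR, for Cyp and Ugt peaks of the 10 gene clusters, other Cyp and Ugt peaks, and all peaks, with 95% Wilson intervals for the Cyp and Ugt bars. The cluster bars reach 27.5%, 29.7%, 38.1% and 43.5% from left to right, and the bars of all peaks lie between 8.17% and 10.05%.

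Genes that serve the same pathways were set beside these. Of 40 genes for electron donors and heme, transcriptional regulators, cofactor supply and conjugation, and transporters, 28 were bound in WT liver, 34 in ERRα 3SA liver, 17 in WT muscle and 25 in ERRα 3SA muscle, and 4, 5, 3 and 5 had a peak in the top 10%. These are 70%, 85%, 42.5% and 62.5% bound, beside 39.2%, 49.2%, 45.1% and 63.5% of all genes, and 10%, 12.5%, 7.5% and 12.5% in the top 10%, beside 6.61%, 8.73%, 7.51% and 12.7%. The muscle shares were near those of all genes. All 8 donor and heme genes were bound in both liver lists. Por, the P450 oxidoreductase, had its best peak at the top 37.6% in WT liver, 19.3% in ERRα 3SA liver, 66.4% in WT muscle and 6.12% in ERRα 3SA muscle, and Fdx1, the ferredoxin of mitochondrial P450s, reached the top 2.68% in ERRα 3SA muscle. Among the 11 regulators, 9 were bound in each liver list, 5 in WT muscle and 9 in ERRα 3SA muscle. Ppara, which encodes PPARα, had its best peaks at the top 2.90%, 2.04%, 4.16% and 1.45% of the lists, in the same order, whereas Nr1i3 and Ahr, which encode CAR and the aryl hydrocarbon receptor, had none within 20 kb. Among conjugating genes Ephx1, the microsomal epoxide hydrolase, reached the top 2.84% in ERRα 3SA liver, beside the top 10.3% in WT liver. Of 6 transporter genes 4 were bound in ERRα 3SA liver and 1 in each other list.

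The 20 kb limit decided a few memberships. Just inside it were Cyp2g1 in ERRα 3SA liver at 19995 bp upstream and Ugt3a1 at 19983 and 19948 bp downstream in ERRα 3SA muscle and WT liver, and just outside were Cyp2c65 in WT muscle at 20074 bp upstream and Cyp26b1 at 20172 and 20179 bp downstream in WT muscle and ERRα 3SA liver.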

How the data were processed

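ERRα ChIP-seq peak lists were used, 1 per genotype and tissue, and the 4 input samples served only in the authors' peak calling. The authors trimmed reads with Trimmomatic 0.36, aligned them to mm10 with BWA-MEM 0.7.12, kept unique alignments, removed duplicates with Picard 2.0.1, called peaks against input with MACS2 2.1.1.20160309 and annotated the nearest TSS with HOMER 4.9.1. Because only unique alignments were kept, sequence shared by near-identical genes of a cluster can be under-represented. The deposited score is a whole number, 30 at the lowest, and the GC content in the deposited lists is a fraction between 0 and 1. Read numbers are not in these lists, so depth is unknown.

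Ranks, shares and sites were computed here with Python 3.11.15, pandas 2.3.3 and pysam 0.24.0. Peaks were matched by centres within 300 bp over whole lists. Sequences were read from NCBI's GRCm38.p6, on which the GC content of all but 1 to 3 peaks of each list equalled the listed value within 0.001. UTRs came from GENCODE M21. Overlap and motif searches were tested on simulated data and found 400 of 400 planted partners and 100 of 100 planted motifs.

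The members, gene lists and tests were chosen with earlier results of these data known. Named genes were the 8 best-ranked of each list, those with a peak shared by the genotypes (counted where over 20), and 18 chosen by role. Other genes were named after their values were seen. Alternatives were scores of 50 or 100, distances of 5 or 50 kb, lists of equal length, other partner and motif rules, all RefSeq genes, and, added later, 1 mismatch in the motif and leaving out LINE and LTR peaks.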

Additional observations from a re-analysis of the deposited data

Results flagged for a closer look

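Peaks annotated to Cyp or Ugt genes but farther than 20 kb from the TSS were not counted in the main comparisons. There were 43 such peaks in the WT liver list, 43 in ERRα 3SA liver, 28 in WT muscle and 64 in ERRα 3SA muscle. The alternative with a limit of 50 kb took in those up to that distance. Beside the distal Cyp26a1 peak, 4 further sites stood in the top 8% of a list. The first was a site 27.1 kb upstream of Cyp2c29, in an intron of Cyp2c53-ps and called in all 4 lists at ranks 1966 in WT liver, 3194 in ERRα 3SA liver, 459 in WT muscle and 1050 in ERRα 3SA muscle. A site 49.83 kb downstream of Cyp26b1 ranked 1857 in WT liver (top 8.51%) and 1093 in ERRα 3SA liver (top 3.76%). A peak 22.92 kb upstream of Cyp3a41a ranked 2698 in ERRα 3SA muscle (top 5.33%). Overlapping peaks stood at the top 17.4% in WT liver, 11.1% in ERRα 3SA liver and 23.2% in WT muscle. A site 27.1 kb upstream of Ugt2b1 ranked 1644 in WT (top 7.54%) and 6120 in ERRα 3SA liver (top 21.1%).

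At 8 genes the genotype with a peak differed between the tissues. Cyp2d11, Cyp3a44 and Cyp4f40, 3 genes (2.80%, beside 2.31% of all 19188 gene names), were bound in ERRα 3SA but not WT liver and in WT but not ERRα 3SA muscle. Cyp2b23, Cyp2c44, Cyp2d34, Cyp2s1 and Ugt2b5, 5 genes (4.67%, beside 2.82%), were bound in WT but not ERRα 3SA liver and in ERRα 3SA but not WT muscle. These shares are of few genes, and with 1 library per group this difference was not tested.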

How the results depend on the processing

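No paired analysis was possible because each genotype and tissue has 1 library, and for the same reason no replicate could be left out. Of 51 alternative values, 30 stayed within 1.5 times the main count or within the interval of the main share, and 21 did not. The main counts were 49 in WT liver, 55 in ERRα 3SA liver, 27 in WT muscle and 65 in ERRα 3SA muscle. Over all 19188 gene names they were 7515, 9437, 8660 and 12182. Scores of at least 50 left 26 bound genes in WT liver, 8 in WT muscle and 10 in ERRα 3SA muscle. Over all gene names they left 3730, 2008 and 3380. Scores of at least 100 left 15 in WT liver, 21 in ERRα 3SA liver, 4 in WT muscle and 4 in ERRα 3SA muscle. Over all gene names they left 1990, 2975, 718 and 1376. A limit of 5 kb left 25 and 34 in the liver lists and 14 and 28 in the muscle lists. Over all gene names it left 4445, 6129, 5482 and 7567, in the same order. Lists of equal length left 32 in ERRα 3SA muscle, beside 7268 of all gene names, with peaks of equal score at the cut kept by list order. Centres within 100 bp gave 20.8% of ERRα 3SA liver peaks a WT partner, beside 19.8% of all peaks. Restricting both lists to scores of at least 100 gave 60% of 5 ERRα 3SA muscle peaks one, beside 37.3% of all. The ERRE with at most 1 mismatch was in 37.8% of WT liver, 39.6% of ERRα 3SA liver and 13.1% of ERRα 3SA muscle peaks. The shares of all peaks were 38.8%, 39.1% and 19.4%. At scores of at least 100 the ERRE was in 17.9% of 28 ERRα 3SA liver, 0 of 4 WT muscle and 20% of 5 ERRα 3SA muscle peaks. Among all peaks with such scores the shares were 23.8%, 15.6% and 17.3%. Over all RefSeq genes, 59.6% of 156 Cyp and Ugt genes were bound in any list (main value 86.9%), beside 33.9% of all genes (main value 88.5%). Higher score limits, a shorter TSS distance and shorter lists leave fewer peaks by construction. A tighter centre limit can only lower the share with a partner, and an allowed mismatch can only raise the share with the motif. RefSeq adds genes that no list named to the number divided by. For the other changes the cause was not tested.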
